A study of Mus musculus with 6 samples.

Results

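The chemokine and sphingosine phosphate receptors described here are 8 genes, Ccr4, Ccr7, Ccr8, Cxcr3, Cxcr4, Cxcr6, S1pr1 and S1pr4, taken by symbol from 47643 annotated genes in the deposited tables. All 8 passed the filter on low values, a mean of at least 1 FPKM (the authors' measure of expression per transcript length and library size) over the libraries, and so were among the 12113 genes tested.

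Chemokine receptors are G-protein-coupled receptors that turn a gradient of a secreted chemokine into directed movement, mainly through the inhibitory G proteins. CCR7 brings T cells to the T cell zones of lymph nodes, CCR4, CCR8, CXCR3 and CXCR6 are linked to entry into inflamed tissue and tumours, and CXCR4 holds cells in the bone marrow and other CXCL12-rich niches. The S1P receptors sense sphingosine 1-phosphate, a lipid that is abundant in blood and lymph and scarce inside tissue. S1P receptor 1 thereby lets T cells leave lymphoid organs.

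The cells were Foxp3+ induced regulatory T cells (iTreg) of C57BL/6 mice with the Foxp3-DTR/EGFP genotype, in which the Foxp3 gene drives a green reporter. Splenic CD4+ T cells of these mice were stimulated through CD3 and CD28 in the presence of TGF-β for 2 days, then exposed for 6 h to vehicle (DMSO, 3 libraries) or to 100 nM prostaglandin E2 (PGE2, 3 libraries), and sorted on the reporter. PGE2 is a lipid mediator whose receptors EP2 and EP4, named in the title of the series, raise cAMP. The labels do not say that libraries with different numbers came from separate mice or cultures. The p-values therefore reflect only how far these samples spread, which may be technical. The cells were made in culture, and the values describe transcript levels of the receptors, not receptor protein or migration.

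RefSeq promoter windows (build GRCm38.p6, the patched form of mm10) matched 6 of the 8 genes, all but Ccr7 and S1pr1. The 250 bases before the annotated start are shown for 5 of them, 5′ to 3′ on the gene's own strand. Cxcr4 and S1pr4 are shown because their libraries did not overlap between groups, Ccr8 and Ccr4 because they varied together from library to library, and Cxcr6 because it had the lowest level. Capitals mark the matches described after the sequences. The windows are chr1:128592300-128592549 (minus strand) for Cxcr4, chr10:81500138-81500387 (minus) for S1pr4, chr9:120091883-120092132 (plus) for Ccr8, chr9:114496545-114496794 (minus) for Ccr4 and chr9:123806227-123806476 (plus) for Cxcr6.
Cxcr4: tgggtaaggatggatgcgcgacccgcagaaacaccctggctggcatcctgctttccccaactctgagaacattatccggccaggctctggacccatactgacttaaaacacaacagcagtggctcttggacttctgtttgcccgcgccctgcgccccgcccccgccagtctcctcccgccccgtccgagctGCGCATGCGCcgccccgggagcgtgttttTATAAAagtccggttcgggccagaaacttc
S1pr4: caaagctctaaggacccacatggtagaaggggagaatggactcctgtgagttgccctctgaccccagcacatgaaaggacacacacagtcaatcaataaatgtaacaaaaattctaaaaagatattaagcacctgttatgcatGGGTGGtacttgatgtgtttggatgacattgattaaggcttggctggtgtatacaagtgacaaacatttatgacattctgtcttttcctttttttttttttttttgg
Ccr8: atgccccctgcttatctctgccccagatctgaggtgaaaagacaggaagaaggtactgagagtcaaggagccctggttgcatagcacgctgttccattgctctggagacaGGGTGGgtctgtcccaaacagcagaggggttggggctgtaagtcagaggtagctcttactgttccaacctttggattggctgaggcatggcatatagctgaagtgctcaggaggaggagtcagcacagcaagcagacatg
Ccr4: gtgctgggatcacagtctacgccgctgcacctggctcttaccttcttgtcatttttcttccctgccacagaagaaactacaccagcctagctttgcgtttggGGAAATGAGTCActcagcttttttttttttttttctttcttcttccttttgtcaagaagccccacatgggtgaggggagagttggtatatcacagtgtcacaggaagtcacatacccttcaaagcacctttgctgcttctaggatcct
Cxcr6: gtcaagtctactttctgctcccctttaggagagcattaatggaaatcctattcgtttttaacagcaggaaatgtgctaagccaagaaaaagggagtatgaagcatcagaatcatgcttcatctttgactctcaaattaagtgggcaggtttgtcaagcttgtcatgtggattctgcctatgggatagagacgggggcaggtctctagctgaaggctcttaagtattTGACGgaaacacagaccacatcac

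The Cxcr4 window is rich in G and C (61.2%) and holds GCGCATGCGC, the palindromic NRF-1 motif, at bases 59 to 50 before the start, and a TATA box, with the letters TATAAA, at bases 30 to 25. The NRF-1 motif was found in 0.782% of 32851 windows of the same length, and TATAAA, searched on the gene's strand only, in 7.59%. Motifs other than the TATA box were searched on both strands. The Ccr4 window holds TGAGTCA, an AP-1 site found in 4.46% of windows, directly after GGAAA, the core that NFAT binds, and together they form the run GGAAATGAGTCA at bases 148 to 137. That run was searched for after the sequence had been seen, and it is present in 5 of the 32851 windows, that of Ccr4 among them. Any run of this length copied from a window would be rare, so the count is a description only. GGAAA alone is in 55.6% of windows, among them those of Cxcr4, Cxcr6 and S1pr4.

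Ccr8 and S1pr4 each carry GGGTGG, the reverse complement of the KLF motif CCACCC, at bases 140 to 135 and 107 to 102. It is in 28.1% of windows. TGACGTCA, the full cAMP response element, was found in 0 of the 6 windows and in 1.55% of all windows. Its shorter form TGACG, found in 17.8%, was present in the window of Cxcr6 alone, at bases 24 to 20, where its last letter is also the first letter of a GGAAA. The FOXO motif GTAAACA was found in 0 of the 6 windows and in 3.17% of all. Of the 6 windows, that of Cxcr3 is not shown, and 122 of its 250 bases lie inside the gene's annotated span. These matches describe letters in a window and were not linked to binding in these cells.

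None of the 8 receptors passed the test between PGE2 and vehicle, which does not show that they were unchanged. In simulated data 30% of genes changed 1.5-fold passed, and the largest receptor change was 1.45-fold (Cxcr4). By limma over all 12113 tested genes, at an adjusted p under 0.05, 0 of 8 rose (background 0.57%, 69 genes) and 0 of 8 fell (background 0.239%, 29 genes). With the replicate number as a block, which takes up differences shared by libraries of the same number, the counts were again 0 (background 1.77%) and 0 (background 1.49%). Of the 8, 7 had a higher mean with PGE2 (background 43.3%) and their median log2 change was 0.32, against -0.03 over all tested genes. At an unadjusted p under 0.05, 4 were higher, Ccr7, Cxcr4, S1pr1 and S1pr4 (background 5.46%), and 0 were lower (background 7.59%). For the same 4, every PGE2 library was above every vehicle library (background 7.81%). The 8 were chosen with results of these data known, so these counts describe the receptors and do not test them as a set. In sorted bulk RNA, a change in the share of cells with a transcript and a change in its amount per cell cannot be told apart.

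**Figure D1:**
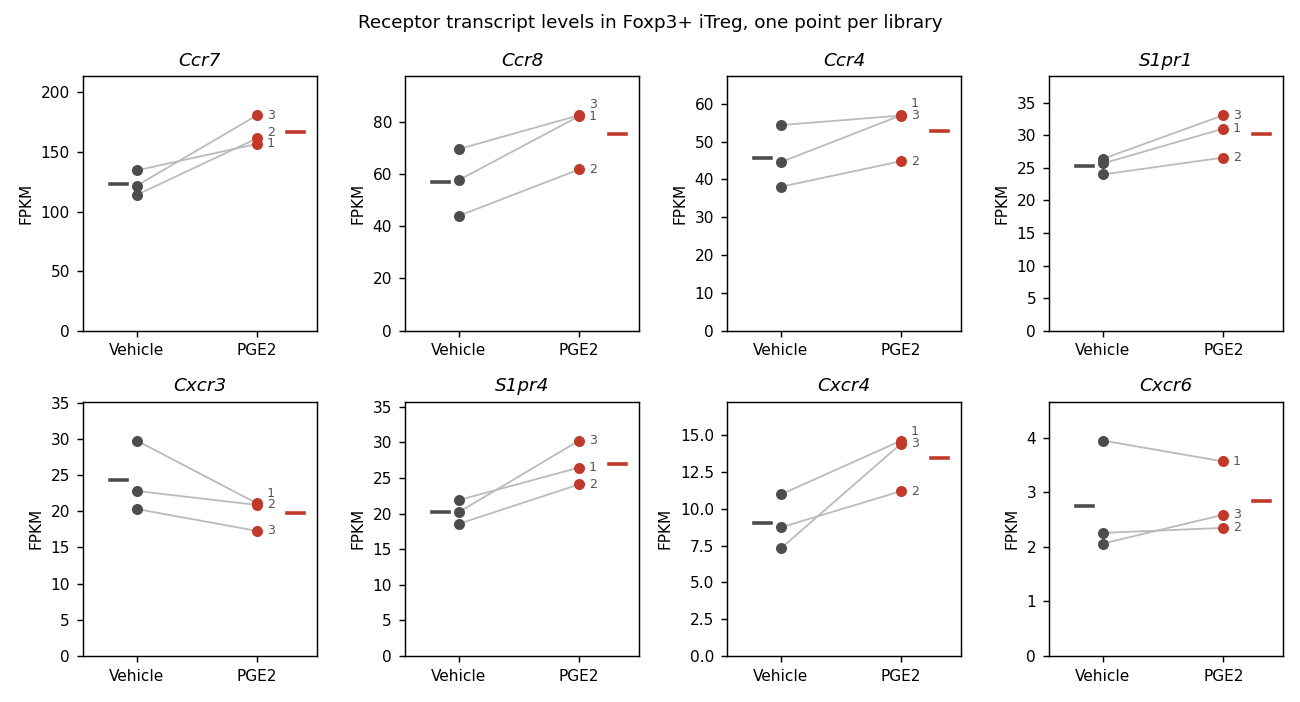
FPKM of each receptor in the 3 vehicle and 3 PGE2 libraries, 1 point per library, with horizontal bars at the group means and grey lines joining libraries of the same replicate number (printed beside the PGE2 points). Ccr7, S1pr1, S1pr4 and Cxcr4 show no overlap between groups, and Cxcr3 is the receptor whose lines all run downward.

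Ccr7 had the highest level of the 8. It encodes the receptor for CCL19 and CCL21 and lies on the minus strand at chr11:99144196-99155077 (mm10, ENSMUSG00000037944.8). It was at 135, 114 and 122 FPKM in vehicle libraries 1, 2 and 3, and at 157, 161 and 181 FPKM in PGE2 libraries 1, 2 and 3. All 3 PGE2 libraries were above all 3 vehicle libraries. The means were 123 ± 10.4 and 166 ± 12.8 FPKM (SD, n = 3), a 1.35-fold difference on the log2(FPKM + 1) scale. The log2 change of 0.43 (SE 0.10, 95% interval 0.19 to 0.66) missed the threshold at adjusted p = 0.121 with limma, and the unadjusted p was 0.0033. Ccr7 stood above 96.4% of tested genes, with a mean read depth over the gene of 486 to 854 in each library.

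The other lymph node and egress receptors were S1pr1 and S1pr4. S1pr1 (ENSMUSG00000045092.8, chr3:115710433-115715072, minus strand) was at 25.7, 24.0 and 26.4 FPKM with vehicle and at 31.0, 26.6 and 33.1 FPKM with PGE2. The lowest PGE2 library, number 2, lay just above the highest vehicle library. Its log2 change of 0.24 (SE 0.10, interval 0.00 to 0.48) had an adjusted p of 0.378 with limma.

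S1pr4, the S1P receptor found mainly on cells of the blood lineages (ENSMUSG00000044199.5, chr10:81497745-81500132, minus strand), was at 21.9, 18.6 and 20.2 FPKM with vehicle and at 26.5, 24.1 and 30.2 FPKM with PGE2. The groups did not overlap. Its means of 20.2 ± 1.67 and 26.9 ± 3.10 FPKM (SD, n = 3) differed by a log2 change of 0.39 (SE 0.11, interval 0.14 to 0.65, adjusted p = 0.176 with limma). The assembled locus that spans S1pr4 reached up to 2.36 times the value of the annotated gene. With that locus in its place the log2 change was 0.51, with an SE of 0.31.

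Among the receptors for inflamed and tumour tissue, Ccr8 and Ccr4 were the most abundant. Ccr8, a receptor for CCL1 that is often high on regulatory T cells in tumours (ENSMUSG00000042262.4, chr9:120092133-120094906, plus strand), was at 57.7, 44.0 and 69.6 FPKM with vehicle and at 82.2, 61.8 and 82.6 FPKM with PGE2. PGE2 library 2 lay below vehicle library 3, so the groups overlapped, but within each replicate number the PGE2 library was higher, by 0.50, 0.48 and 0.24 on the log2 scale. The log2 change of 0.41 (SE 0.19, interval -0.03 to 0.84) had an adjusted p of 0.413 with limma. The block lowered the SE to 0.08 and the adjusted p to 0.0555, the lowest value reached by any of the 8 in the alternatives run.

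Ccr4 encodes the receptor for CCL17 and CCL22 (ENSMUSG00000047898.6, chr9:114490316-114496544, minus strand). It was at 44.6, 38.0 and 54.4 FPKM with vehicle and at 57.0, 44.8 and 56.9 FPKM with PGE2. The groups overlapped, and the differences within replicate numbers were 0.35, 0.23 and 0.06. Its log2 change was 0.21 (SE 0.15, interval -0.14 to 0.57, adjusted p = 0.63 with limma). GENCODE release M21 lists 3 transcripts for this gene. Whether the deposited value sums over them is not given.

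Cxcr3, the receptor for CXCL9, CXCL10 and CXCL11 and a mark of type 1 responses (ENSMUSG00000050232.6, chrX:101731535-101734269, minus strand), was the receptor with the lower mean under PGE2. It was at 29.8, 22.8 and 20.3 FPKM with vehicle and at 21.1, 20.9 and 17.3 FPKM with PGE2. The highest PGE2 library lay above the lowest vehicle library. The differences within replicate numbers were -0.48, -0.12 and -0.22, all in the same direction. The log2 change was -0.27 (SE 0.15, interval -0.63 to 0.08), with an adjusted p of 0.513 from limma and of 0.173 with the block.

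Cxcr4, the receptor for CXCL12 (ENSMUSG00000045382.6, chr1:128588199-128592293, minus strand), stood above only Cxcr6 among the 8. It was at 11.0, 8.73 and 7.31 FPKM with vehicle and at 14.6, 11.2 and 14.4 FPKM with PGE2. The lowest PGE2 library was just above the highest vehicle library. The means were 9.0 ± 1.85 and 13.4 ± 1.93 FPKM (SD, n = 3), a log2 change of 0.53 (SE 0.16, interval 0.16 to 0.91) with an adjusted p of 0.209 from limma. Number 3 had the widest gap between its libraries, 0.89 on the log2 scale, against 0.39 and 0.33 in numbers 1 and 2.

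Cxcr6, the receptor for the membrane-bound chemokine CXCL16 (ENSMUSG00000048521.7, chr9:123806477-123811754, plus strand), was the lowest of the 8. It was at 3.95, 2.26 and 2.06 FPKM with vehicle and at 3.57, 2.35 and 2.59 FPKM with PGE2. Library 1 was the highest in both groups. The log2 change of 0.05 (SE 0.21, adjusted p = 0.947 with limma) had an interval of -0.45 to 0.55, which spans changes as large as that of Cxcr4. The gene overlaps Fyco1 on the opposite strand, which was at no more than 2.30 FPKM. Whether the counting used strand is not given, so reads of the pair may be mixed. The read depth over Cxcr6 was 8.24 to 20.2, against 27.5 to 854 for the other 7 receptors.

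**Figure D2:**
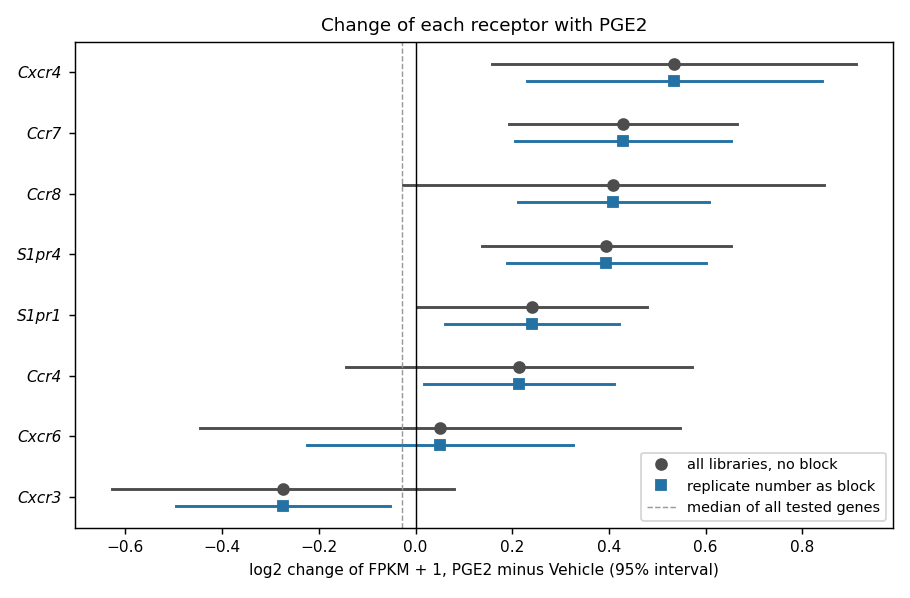
Log2 change of FPKM + 1 (PGE2 minus vehicle, horizontal axis) of each receptor with its 95% interval, from the fit without (grey circles) and with (blue squares) the replicate number as a block; the dashed line is the median of all tested genes, -0.03. The points are identical in both fits, from 0.53 for Cxcr4 to -0.27 for Cxcr3, and the interval of Ccr8 shortens the most with the block.

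Read depth was put on the FPKM scale by a constant for each library. It gave the same log2 change to within 0.01 for each of the 8 receptors, 0.53 for Cxcr4 and 0.43 for Ccr7 among them. Within a library the measures are nearly proportional for single-transcript genes, so this likeness is no independent check. With the libraries compared within replicate numbers, 6 receptors were higher in all 3 pairs (background 17.7%) and Cxcr3 was lower in all 3 (background 24.5%). Cxcr6 had a pair in each direction. At an unadjusted p under 0.05 with the block, 6 were higher (background 8.48%) and 1 was lower (background 11.2%), none of them past the adjusted threshold. All 8 log2 changes kept their sign under the median and quantile scalings of the libraries.

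The order of the levels was nearly the same in both groups. With vehicle it ran Ccr7, Ccr8, Ccr4, S1pr1, Cxcr3, S1pr4, Cxcr4 and Cxcr6, from 123 to 2.76 FPKM on average. Ccr8 and Ccr4 overlapped, as did S1pr1 and Cxcr3, and Cxcr3 and S1pr4, whereas the other neighbours did not. With PGE2, S1pr4 came before Cxcr3, and the lowest S1pr4 library (24.1 FPKM) was above the highest Cxcr3 library (21.1 FPKM). The only overlapping neighbours in that group were S1pr1 and S1pr4. FPKM is scaled to transcript length, so these levels can be compared between genes. The level of S1pr4, whose assembled locus reached higher values, and that of Cxcr6, which overlaps Fyco1, are less certain.

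The summed FPKM of the 8 receptors was 308 ± 30.9 with vehicle (SD, n = 3, from 272 to 329) and 388 ± 32.7 with PGE2 (from 353 to 418). All PGE2 libraries lay above all vehicle libraries. Ccr7 made up 40.2% ± 2.11 of the sum with vehicle and 43.0% ± 2.91 with PGE2. The share of Ccr8 was 18.4% ± 2.84 and 19.4% ± 1.75, and that of Ccr4 was 14.8% ± 1.82 and 13.6% ± 0.906. Cxcr3 was the receptor whose share separated the groups on the lower side, at 9.04%, 8.37% and 6.31% in the vehicle libraries and at 5.36%, 5.91% and 4.13% in the PGE2 libraries. S1pr1 took 8.27% ± 0.508 and 7.78% ± 0.221, and S1pr4 took 6.58% ± 0.278 and 6.93% ± 0.267.

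**Figure D3:**
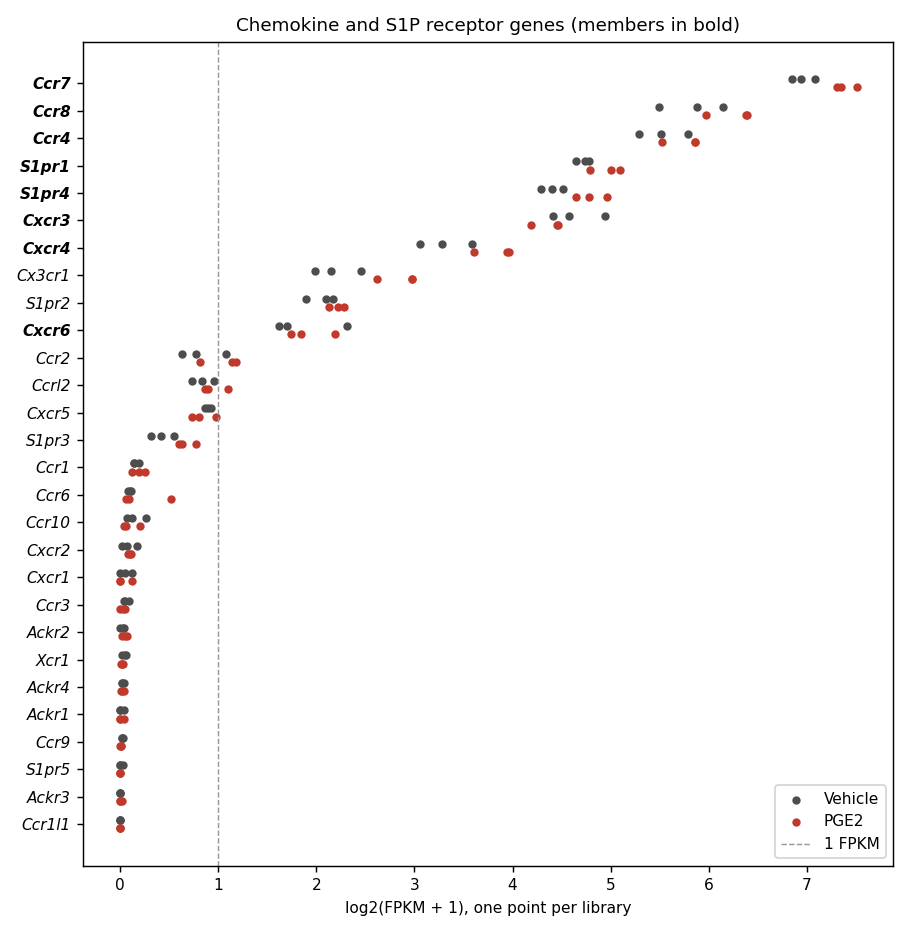
Levels, as log2(FPKM + 1) on the horizontal axis, of chemokine, atypical chemokine and S1P receptor genes in the 3 vehicle (grey) and 3 PGE2 (red) libraries, ordered by mean; the 8 receptors described here are in bold and the dashed line is the position of 1 FPKM. Most of the other genes lie left of the line, with 18 at a mean under 1 FPKM, and Ccr7 is at the top with 114 to 181 FPKM.

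The 8 receptors held 95.9% to 96.5% of the FPKM of all 29 chemokine and S1P receptor genes in each library. Of the other 21, 18 had a mean under 1 FPKM, whereas Cx3cr1 and S1pr2 were among those above it. Cx3cr1, the receptor for fractalkine, was at 3.45, 2.97 and 4.50 FPKM with vehicle and at 6.84, 5.13 and 6.86 FPKM with PGE2, without overlap. Its log2 change of 0.65 (SE 0.16) had an adjusted p of 0.13 with limma, and with the replicate block it rose, at an adjusted p of 0.029. S1pr2, an S1P receptor that restrains migration, was at 2.73 to 3.50 and at 3.39 to 3.87 FPKM (adjusted p = 0.63 with limma).

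Some receptors of other T cell fates were low, though Cxcr3, a mark of type 1 responses, was not. Ccr6 and Cxcr5, which mark Th17 and follicular helper cells, had means under 1 FPKM, as did Ccr9 and Ccr10, the receptors for homing to gut and skin. Ccr1l1 is listed at 0 in every library. Ccr4, Ccr8 and Cxcr6 all lie on chromosome 9.

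Libraries of the same replicate number shared part of their deviation from the group means. The mean over the groups was lowest in number 2 for 7 of the 8 receptors, the exception being Cxcr3, which was lowest in number 3. Number 2 was the lowest library in both groups for 4 receptors, Ccr4, Ccr8, S1pr1 and S1pr4. The share of all tested genes with this pattern was not counted. Ccr8 in library 2 lay 0.34 (vehicle) and 0.27 (PGE2) below its group mean on the log2 scale, and Ccr4 lay 0.24 and 0.23 below. Cxcr6 in library 1 lay 0.43 and 0.27 above. For Ccr8 the range between the replicate numbers was 0.53 on the log2 scale, larger than the 0.41 between the groups, and for Cxcr6 it was 0.53 against 0.05. For Ccr7 the range between numbers was 0.13, smaller than the 0.43 between the groups. What the numbers stand for is not given in the labels.

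**Figure D4:**
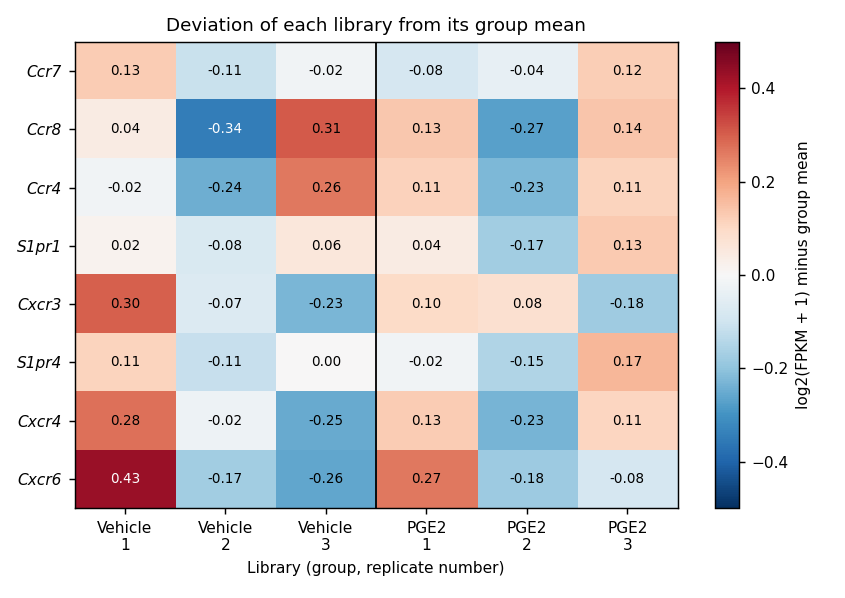
Deviation of each library from its group mean, in log2(FPKM + 1), for the 8 receptors (vertical) in the 6 libraries (horizontal); red is above and blue below the mean. The column of number 2 is blue or pale in both groups apart from Cxcr3 with PGE2 (0.08), and the row of Cxcr6 is red in number 1 in both groups.

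The 2 tested protein-coding genes whose log2 values were most like each receptor over the 6 libraries were listed as a description. With 6 libraries that share 2 groups and 3 numbers, many of 12113 genes reach high values. Ccr8 was most like Dazap2 (Pearson r = 0.99) and then Ccr4 (r = 0.97), and Ccr4 was also most like Dazap2 (r = 0.99). Dazap2 itself stayed between 142 and 149 FPKM, so that likeness of pattern came with a much smaller range. Ccr7 was most like Arpc3, a subunit of the actin-branching Arp2/3 complex, at r = 0.997, which was at 217 to 246 FPKM with vehicle and 287 to 334 with PGE2. Cxcr4 was most like Srgn (r = 0.99), which encodes the granule proteoglycan serglycin, and Ubald2. Cxcr6 was most like Foxp1 (r = 0.997), a factor of T cell quiescence, and Sqstm1.

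S1pr1 was most like Oxnad1 and Cd200 (both r = 0.97), S1pr4 was most like Fbxo32 (r = 0.997) and Pfn2, and Cxcr3 was most like Camkk1 and Fam104a (both r = 0.99). None of these genes passed the test between groups. Cd200, a surface ligand that restrains myeloid cells, had a log2 change of 0.76 at an adjusted p of 0.145 with limma, from 14.4 to 18.9 FPKM with vehicle and from 21.8 to 35.3 with PGE2.

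The genes around these receptors were followed in lists of their ligands, S1P enzymes, S1pr1 controllers, G proteins, kinases, regulators and migration machinery. For ligands, 2 of 11 genes were tested, Ccl22 and Cxcl10. Ccl22, a ligand of CCR4, was at 5.24, 4.82 and 3.30 FPKM with vehicle and at 5.29, 8.27 and 5.35 with PGE2, groups that did not overlap, with an adjusted p of 0.452 from limma. Cxcl10, a ligand of CXCR3, was at 1.82 to 2.27 and 1.83 to 2.57 FPKM. Cxcl16, the ligand of CXCR6, was under 1 FPKM, and Cxcl12, Ccl19, Ccl21a and Ccl8 are listed at 0 in every library.

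Of 5 tested genes that make or break down S1P, 0 rose and 0 fell, with a median log2 change of -0.03. Sphk2, a kinase that makes S1P, was at 11.0 ± 1.33 and 11.7 ± 0.866 FPKM (SD, n = 3), and Sgpp1, an S1P phosphatase, was at 25.2 ± 2.00 and 23.8 ± 1.22 FPKM. The intervals of their log2 changes were -0.17 to 0.35 and -0.29 to 0.14.

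Of 11 tested genes listed under S1pr1 control and lymph node homing, 0 rose and 0 fell, with a median of -0.10. The list is wider than its name, since it also holds Itgae, an integrin gene. With the block 2 rose, Stat3 and Ly6c1, and 1 fell, Itgae. Klf2, the factor that drives S1pr1 transcription, was at 23.9, 15.9 and 20.7 FPKM with vehicle and at 21.2, 19.9 and 26.6 FPKM with PGE2 (adjusted p = 0.759 with limma). The groups overlapped, with library 2 the lowest in both.

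Cd69, whose product pulls S1P receptor 1 from the cell surface, was at 122, 84.8 and 37.2 FPKM with vehicle and at 106, 66.9 and 38.4 FPKM with PGE2. It was high in number 1 and low in number 3 in both groups. Its range between the numbers was 1.57 on the log2 scale, against a difference between groups of -0.16 (SE 0.49, adjusted p = 0.927 with limma). With the block the SE was 0.09 and the adjusted p 0.387.

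Stat3, a signal transducer of cytokine receptors, was at 56.5 to 62.0 FPKM with vehicle and at 76.9 to 88.9 with PGE2 (log2 change 0.45, adjusted p = 0.0786 with limma and 0.0338 with the block). Ly6c1 was at 24.7 to 36.9 and 47.8 to 59.6 FPKM, with adjusted p = 0.082 and 0.044 with the block, but it has a near-identical neighbour and its value is uncertain. Itgae, which encodes the integrin CD103 that binds E-cadherin and was chosen after its values were seen, was at 23.0, 16.6 and 16.4 FPKM with vehicle and at 13.9, 9.51 and 8.02 with PGE2. Its log2 change of -0.79 had an SE of 0.21 and an adjusted p of 0.151, and with the block 0.09 and 0.0104 (limma).

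Of 13 tested G protein genes, 0 rose and 0 fell, with a median log2 change of 0.13. Gnai2, the main inhibitory alpha subunit of lymphocytes and a partner of chemokine receptors, was at 295 to 326 FPKM with vehicle and at 311 to 338 with PGE2. The smallest p in this list belonged to Gnb4, a beta subunit (log2 change 0.35, adjusted p = 0.214 with limma), and to Gna13, the alpha subunit downstream of S1P receptor 2 (0.21, adjusted p = 0.383). Of 6 receptor kinases and arrestins, 0 passed. Arrb1, which encodes the adaptor beta-arrestin 1, was at 6.85, 8.71 and 7.68 FPKM with vehicle and at 21.9, 15.4 and 12.1 with PGE2. Its adjusted p was 0.0888 with limma, and with the block it rose, at an adjusted p of 0.0476. Its log2 change was 0.96 from FPKM and 0.47 from read depth. Grk4, a receptor kinase, was at 1.29 to 1.86 and 0.51 to 1.32 FPKM (adjusted p = 0.306 with limma).

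The RGS proteins speed up the shut-off of G proteins, and of 7 tested genes 1 rose and 0 fell. Rgs2, which acts mainly on Gq and also dampens cAMP signalling, rose from 4.88, 4.32 and 3.26 FPKM to 8.46, 8.83 and 8.84 FPKM. The log2 change was 0.93 (SE 0.13, adjusted p = 0.0313 with limma). It missed the threshold without any 1 of vehicle libraries 1 and 2 and PGE2 libraries 1, 2 and 3, with adjusted p up to 0.16, and passed without vehicle library 3 at 0.0334. Of 25 tested genes of adhesion and movement downstream of the receptors, 0 rose and 0 fell, with or without the block, and their median was -0.06. Rhoh, an atypical GTPase of lymphocytes, was at 49.1 to 58.9 and 59.7 to 70.7 FPKM (adjusted p = 0.241 with limma), and Rac1, a GTPase of the leading edge, was at 71.5 to 77.2 and 82.3 to 96.2 FPKM (adjusted p = 0.278). More genes of this list were lower than higher, as among all tested genes. A higher mean with PGE2 was found for 9 of the 25 (background 43.3%). At an unadjusted p under 0.05, 3 were lower (background 7.59%) and 2 higher (background 5.46%). The groups did not overlap for 6 lower (background 11.9%) and 2 higher genes (background 7.81%). Among the lower were Rap1a, a GTPase that activates integrins, at 60.2 to 76.2 and 51.4 to 59.3 FPKM (log2 change -0.28, adjusted p = 0.362 with limma), and Rasgrp2, an activator of Rap1, at 9.68 to 12.6 and 7.93 to 9.04 FPKM (-0.29, adjusted p = 0.358).

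**Figure D5:**
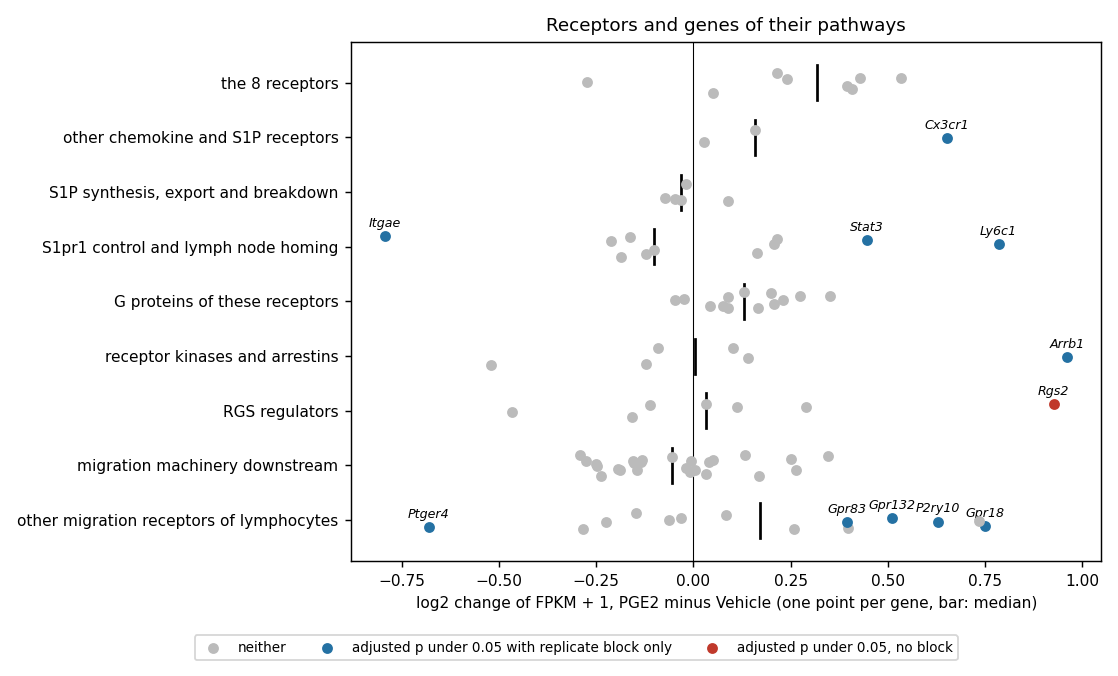
Log2 change of FPKM + 1 (PGE2 minus vehicle, horizontal axis) of each tested gene, 1 point per gene, in the 8 receptors and the lists around them, with a bar at each list's median. Red marks the gene that passed without the block (Rgs2), blue those that passed with the replicate block only, and grey the rest; the 8 receptors are all grey, with their median at 0.32.

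Other receptors for lipids and small ligands also steer lymphocytes. Of 14 tested genes 0 passed without the block, and with it 4 rose and 1 fell, with a median of 0.17. P2ry10, a receptor for lysophosphatidylserine and related lipids, was at 62.5, 63.3 and 68.4 FPKM with vehicle and at 96.8, 91.6 and 115 FPKM with PGE2 (log2 change 0.63, SE 0.11, adjusted p = 0.0518 with limma and 0.0148 with the block). Gpr18, a lipid receptor of lymphocytes, was at 20.9 to 27.1 and 38.3 to 48.4 FPKM (0.75, SE 0.13, adjusted p = 0.0569 and 0.013). Gpr132 and Gpr83, chosen after their values were seen, rose with the block (adjusted p = 0.0437 and 0.0498 with limma).

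Ptger4, which encodes the PGE2 receptor EP4, was at 31.9, 23.9 and 22.1 FPKM with vehicle and at 17.6, 14.9 and 14.5 FPKM with PGE2. Its adjusted p was 0.1 with limma, and with the block it fell, at an adjusted p of 0.0148. Ptger2, the gene of EP2, was at 3.23 to 3.32 and 3.34 to 3.90 FPKM (log2 change 0.08, adjusted p = 0.809 with limma). Over all 81 tested genes of these lists, ligands left aside, 1 rose and 0 fell, with a median of 0.00 (-0.03 over all tested genes), and with the block 8 rose (background 1.77%) and 2 fell (background 1.49%), Gpr132, Gpr83 and Itgae among them. At an unadjusted p under 0.05, 12 were higher (background 5.46%) and 6 lower (background 7.59%). The lists were chosen with earlier results of these data known, so these counts describe the genes and do not test them as a set.

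The libraries were checked against markers of the labelled cells and of others. The depth of the libraries was 3.996 to 5.121 gigabases of fragments with vehicle and 4.54 to 5.45 with PGE2. Foxp3 was at 75.4 to 101 and 91.1 to 136 FPKM (adjusted p = 0.514 with limma), and all 9 T cell and regulatory T cell markers were tested, of which Ctla4 rose. Of the 7 markers of naive T cells, which include Ccr7 and S1pr1 themselves, Il7r rose from 15.8 ± 0.257 to 23.4 ± 0.964 FPKM (SD, n = 3; adjusted p = 0.0313 with limma). Tcf7, a factor of naive and memory T cells, was lower without overlap, at 64.7 to 71.7 and 51.1 to 61.4 FPKM (log2 change -0.24, adjusted p = 0.361 with limma), and Lef1, a related factor, was at 58.7 to 66.1 and 56.1 to 62.3 FPKM. Of the 7, 5 had a higher mean with PGE2 (background 43.3%), and Tcf7 and Lef1 had a lower one. The groups did not overlap for 3 higher genes (background 7.81%), Ccr7, S1pr1 and Il7r, and for 1 lower gene (background 11.9%), Tcf7. The 7 summed to 345 to 364 FPKM with vehicle and 394 to 410 with PGE2. Without Ccr7 and S1pr1, the other 5 summed to 197 to 213 and 196 to 219. Of 8 NK and CD8 markers 3 were tested, and Eomes fell (adjusted p = 0.0459 with limma). The remaining tested genes, Cd8b1 and Klrd1, had higher means with PGE2 and did not pass without the block. Cd8b1 was at 4.68 to 4.96 and 5.31 to 5.88 FPKM, and Klrd1 at 0.627 to 2.78 and 2.26 to 4.50 FPKM. Ncr1 and Klrb1c are listed at 0, and the sum of the 8 markers was 10.5 to 13.7 and 11.2 to 14.1 FPKM. Sums were 3.92 to 5.81 and 3.64 to 4.40 FPKM for 8 B cell markers, 1.87 to 5.53 and 2.76 to 4.45 for 9 myeloid markers with S100a8 and S100a9 at 0, 0.332 to 1.23 and 0.823 to 1.22 for 7 dendritic cell markers, and 1.47 to 1.88 and 1.53 to 2.95 for 8 erythroid and platelet markers.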

How the data were processed

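RNA sequencing libraries of 6 sorted iTreg samples were compared, grouped and numbered by their titles. The submitters' processing notes name Trim Galore (a read trimmer), HISAT2 (an aligner) and the build mm10. Versions, the annotation and the table-making program are not given in the sources used. Per the file headers, each library has a deposited gene table with coverage (mean read depth), FPKM and TPM. The authors' FPKM is scaled to library size and transcript length. The deposited TPM was regarded as a score and left unused, because a locus can appear in that column as assembled and again as annotated. Only entries with an annotated gene ID were used, and the 21 to 27 IDs that a library lists repeatedly were added up.

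The 12113 genes whose mean reached 1 FPKM were tested on log2(FPKM + 1) by limma (version 3.58.1, R 4.3.3) with a mean-variance trend, 6 libraries, no covariate, two-sided, with Benjamini-Hochberg adjustment over all of them at 0.05. A log2 change on this scale understates the change of low genes. Whole reads could not be recovered, so no counting error is given. Depth is the ratio of coverage to FPKM, within 1% of a constant for 97.3% to 97.7% of single-transcript genes. Deviations of same-numbered libraries from the group means correlated at 0.227, 0.312 and 0.529 across genes, each above 0.1, and those of differently numbered libraries at -0.433 to 0.271. By the rule that every same-numbered pair be above 0.1, the titles' numbers were taken to pair the samples and the fit with the number as a block is given where it changes a call. Vehicle 2 with PGE2 1 (0.271) and vehicle 1 with PGE2 2 (0.149) also exceeded 0.1. The rule rests on the same values and does not single out the same-numbered pairs, so the pairing is an assumption.

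The receptors and the lists were chosen with earlier results of these data known. Named genes are the 8 receptors, the other receptors and their ligands, from each other list those called or, with none called, up to 2 with the smallest p, with Klf2, Cd69, Gnai2, Ptger2, Ptger4 and Foxp3 always named, and the 2 genes most like each receptor. Some genes of these lists are not reported here. Itgae, Gpr132, Gpr83, Rap1a, Rasgrp2, Tcf7, Lef1, Plpp1, S1pr3, Cd8b1 and Klrd1 were chosen after their values were seen. Grk2 and Grk3 are listed as Adrbk1 and Adrbk2. On simulated data of 12113 genes for this comparison, 30% of 100 genes changed 1.5-fold and 70% of 100 changed 2-fold were recovered, with 6 false calls. The simulated libraries varied independently, without deviations shared by replicate number. Alternatives changed the pseudocount, filter, scaling, measure, variance model and block, and left out each library.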

Additional observations from a re-analysis of the deposited data

How the results depend on the processing

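The limits are 3 libraries a group, an unknown origin of the replicate numbers and values without read counts. In 16 alternatives 0 of the 8 receptors rose or fell, and at a mean of at least 5 FPKM, which leaves out Cxcr6, 0 of 7. Over these 17, the 7 receptors other than Cxcr6 kept the sign of their log2 change; adjusted p by limma ranged from 0.0681 to 0.4 for Ccr7, 0.0832 to 0.503 for Cxcr4, 0.0684 to 0.565 for S1pr4, 0.0555 to 0.78 for Ccr8, 0.148 to 0.743 for S1pr1, 0.173 to 0.765 for Cxcr3 and 0.222 to 0.92 for Ccr4. Their median log2 change ran from 0.22 to 0.39. Cxcr6 turned to -0.0347, -0.0791 and -0.0814 without vehicle library 2, vehicle library 3 and PGE2 library 1 (leaving out 1 library gave -0.0814 to 0.27). Cd69 turned to 0.20 without vehicle library 1 and 0.21 without PGE2 library 3 (from -0.64 to 0.21 with 1 library left out), Gnai2 to -0.0321 under quantile normalization and Ptger2 to -0.52 with the assembled locus. The causes were not tested.

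Of all tested genes, 33 rose and 12 fell without a filter, 112 and 47 with coverage in place of FPKM, 16 fell without a mean-variance trend, and leaving out 1 library gave 16 to 53 and 4 to 16. With the replicate block these counts were 215 and 180, 1 of the other receptors (Cx3cr1) rose, and 8 of the trafficking and signalling genes rose and 2 fell. Of these 81 genes, 0 rose and 1 fell without a filter, 3 rose at a mean of at least 5 FPKM, 2 with median scaling, 2 with quantile normalization and 3 with coverage, and leaving out 1 library gave 0 to 1 and 0.

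Leaving out 1 library moved the medians to between -0.0679 and 0.0419 (S1P enzymes), -0.0913 and 0.17 (S1pr1 control), 0.0645 and 0.17 (G proteins), -0.11 and 0.0146 (migration machinery) and 0.10 and 0.21 (other migration receptors). The last was 0.11 with a pseudocount of 5, 0.33 at a mean of at least 5 FPKM, 0.22 with median scaling and 0.0892 with coverage. Kinases and arrestins had -0.0884 with the assembled locus.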

Other observations

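Differences between the groups were also examined in list genes under the filter of 1 FPKM. Plpp1, a lipid phosphate phosphatase of the cell surface that can degrade S1P and other lipid phosphates, was at 0.719, 0.609 and 0.577 FPKM with vehicle and at 0.0809, 0.108 and 0.124 with PGE2. The groups were far apart and each vehicle library lay above each PGE2 library. In the fit without a filter it fell, with a log2 change of -0.57 (SE 0.04, adjusted p = 0.034 with limma). S1pr3, an S1P receptor of endothelial and other cells, was at 0.462, 0.333 and 0.247 FPKM with vehicle and at 0.708, 0.548 and 0.518 with PGE2, without overlap, and did not pass in that fit (adjusted p = 0.436 with limma). Both genes are low, and a pseudocount of 1 shrinks their log2 changes.

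Klrd1, which encodes the CD94 chain of NK receptors, was at 0.961, 0.627 and 2.78 FPKM with vehicle and at 2.54, 2.26 and 4.50 with PGE2. Library 3 was the highest in both groups. Its adjusted p was 0.378 with limma, and with the replicate block it rose, at an adjusted p of 0.0325.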
